A study of Mus musculus with 6 samples.

Results

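The miR-221 and miR-222 pair was examined in exosomes of HN9.10e cells, an immortalized line of mouse embryonic hippocampal cells. It stands for 2 of the 1973 rows of the count table, Mir221 and Mir222, found by the Ensembl identifiers that carry these names in GENCODE M21. The pair had been chosen from rows already known to hold fewer counts under ceramide, so its level under ceramide is described here and not tested. Exosomes were collected after 48 h from the medium of wild-type cells, either untreated (control, 3 libraries) or given 100 nM ceramide, bought as the short-chain C6-ceramide (ceramide, 3 libraries). All 6 libraries came from this single line, grown with fetal bovine serum, and the vesicles were obtained by filtration and a commercial isolation kit. The labels do not say that the replicates came from separate cultures.

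MicroRNAs are cut from hairpins in longer primary transcripts and then guide the silencing complex to messenger RNAs that pair with their seed, bases 2 to 8 of the mature strand. The hairpins of miR-221 and miR-222 are known to be cut from one primary transcript on the X chromosome, and their 3p strands carry one seed. The pair is known to repress Cdkn1b, an inhibitor of cell cycle entry, and Kit, a growth factor receptor, and is generally counted among the miRNAs that favour proliferation.

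In GRCm38 the Mir221 hairpin (ENSMUSG00000065422) spans chrX:19146294-19146388 and the Mir222 hairpin (ENSMUSG00000065471) chrX:19146893-19146971, both on the minus strand, so Mir222 comes first in the direction of transcription. The hairpins measure 95 and 79 bases and lie 504 bases apart. GENCODE M21 has 0 other genes over either of them, so both are intergenic in this annotation. The nearest annotated gene is Gm14636, a noncoding transcript on the same strand that ends 10009 bases upstream of Mir222. No other row of the count table lies within 1 Mb of the pair.

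The mature strands are shown because the seed is what the pair has in common, and capitals mark it. Sequences are those of RefSeq on GRCm38.p6, and the hairpins of both members and of Mir1928 matched between RefSeq and GENCODE. Among the 1738 mature mouse miRNAs of the RefSeq table used, 3 have this seed, and the third is miR-1928, from a hairpin on chromosome 1.
mmu-miR-221-3p: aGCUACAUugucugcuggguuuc
mmu-miR-222-3p: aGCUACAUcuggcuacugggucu
mmu-miR-1928: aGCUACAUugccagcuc
The 3p strands of the pair run alike for 8 bases from the 5′ end, then part, and hold the same base at 11 of 23 positions.

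The whole hairpins are shown because a row counts every read of a hairpin, whichever arm it came from. Capitals mark the mature strands that the RefSeq table lists.
Mir221 hairpin: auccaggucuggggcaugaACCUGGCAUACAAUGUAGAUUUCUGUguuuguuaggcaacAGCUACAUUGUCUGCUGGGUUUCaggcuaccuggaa
Mir222 hairpin: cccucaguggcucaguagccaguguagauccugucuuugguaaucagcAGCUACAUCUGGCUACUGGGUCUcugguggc
The longest stretch shared by both hairpins is 9 bases. Against the 1894 rows with a GENCODE hairpin, neither member shared more than 12 bases with any other row. The authors kept reads of at least 15 bases, so a read that matches one member without a mismatch matches no other hairpin of the table in full. The counts of Mir221 and Mir222 can therefore be read apart from each other, which does not hold for many miRNA families, while the 5p and 3p strands of each cannot.

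Total counts ran from 800810 to 2760015 per library, and 418 rows held enough counts to be tested. Ceramide replicate 1 was the shallowest library. Control replicate 1 and ceramide replicate 1 were labelled with sequencing lane 1, the other control libraries with lane 4 and the other ceramide libraries with lane 2. Control replicate 1, ceramide replicate 1 and ceramide replicate 2 all carry sample number 1, which a single sequencing run gives to one sample. That points to separate runs, also within the ceramide group, so the shared label of the replicate 1 libraries does not show a shared lane. Sequencing run or lane and condition therefore cannot be told apart. Levels below are normalized CPM, the usual per-library rate of counts after TMM scaling of the library total, and the counting intervals are exact 95% intervals that cover counting error only.

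The Mir221 row held 2135, 3066 and 2732 counts in control replicates 1, 2 and 3. It held 605, 2562 and 2296 counts in ceramide replicates 1, 2 and 3, where ceramide replicates 2 and 3 had the deepest libraries. As normalized CPM, Mir221 stood at 2131, 2180 and 1999 in the control libraries. In the ceramide libraries Mir221 stood at 786, 970 and 978 CPM. The groups did not overlap, and the lowest control library held more than 2 times the CPM of the highest ceramide library. The mean of Mir221 was 2103 ± 93.4 CPM over the control libraries and 911 ± 109 CPM over the ceramide libraries (SD, n = 3 each), a fitted log2 fold change of -1.20 (standard error 0.11).

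Mir222 was the member with fewer counts, 335, 440 and 462 in the control libraries and 131, 407 and 413 in the ceramide libraries. As normalized CPM it stood at 334, 313 and 338 in control replicates 1, 2 and 3. In ceramide replicates 1, 2 and 3 Mir222 stood at 170, 154 and 176 CPM. Here too the groups were apart, with the highest ceramide value under the lowest control value. The mean of Mir222 was 328 ± 13.6 CPM over the control libraries and 167 ± 11.3 CPM over the ceramide libraries (SD, n = 3 each), a fitted log2 fold change of -0.98 (standard error 0.10).

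**Figure D1:**
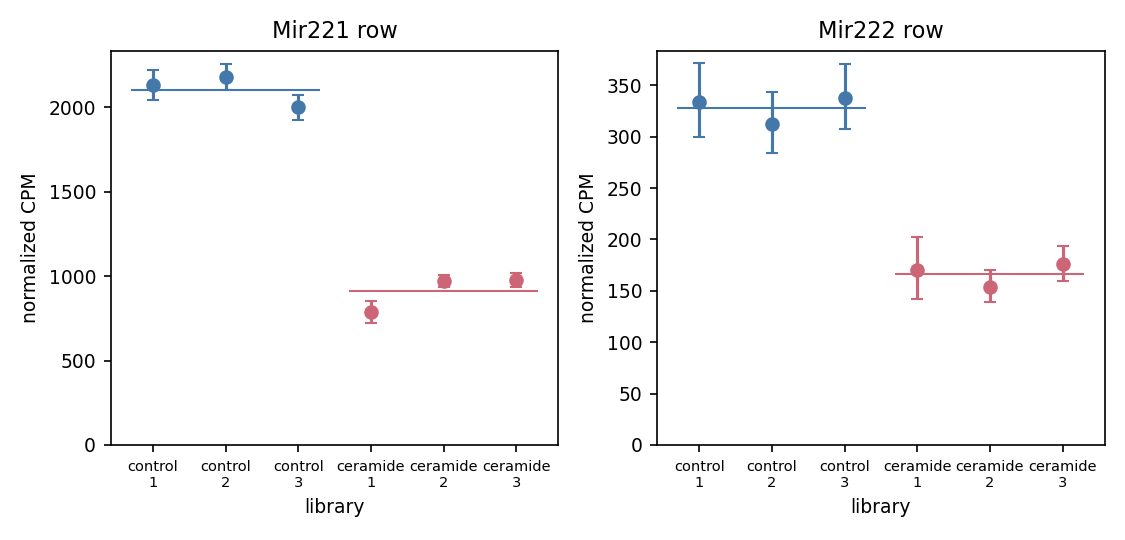
Normalized CPM of the Mir221 row (left) and the Mir222 row (right) in each library (points, with exact 95% counting intervals as bars), with the group means as lines. Mir221 lies between 1999 and 2180 CPM in control and between 786 and 978 CPM in ceramide libraries, and Mir222 between 313 and 338 CPM and between 154 and 176 CPM.

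Both members were among the 35 rows called lower in ceramide (adjusted p of at most 0.05 and a log2 fold change of -0.6 or below), 8.37% of the rows tested. With the lane number as a term in the fit, Mir221 was called and Mir222 was not, at a log2 fold change of -0.97 with a larger standard error of 0.17. All ceramide libraries lay below all control libraries in 25.1% of the rows tested. Nothing is read from these counts, since the pair was selected on this contrast. From the most negative log2 fold change upwards, Mir221 stood at place 6 and Mir222 at place 10 of the 418 rows, whose median was -0.01.

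**Figure D2:**
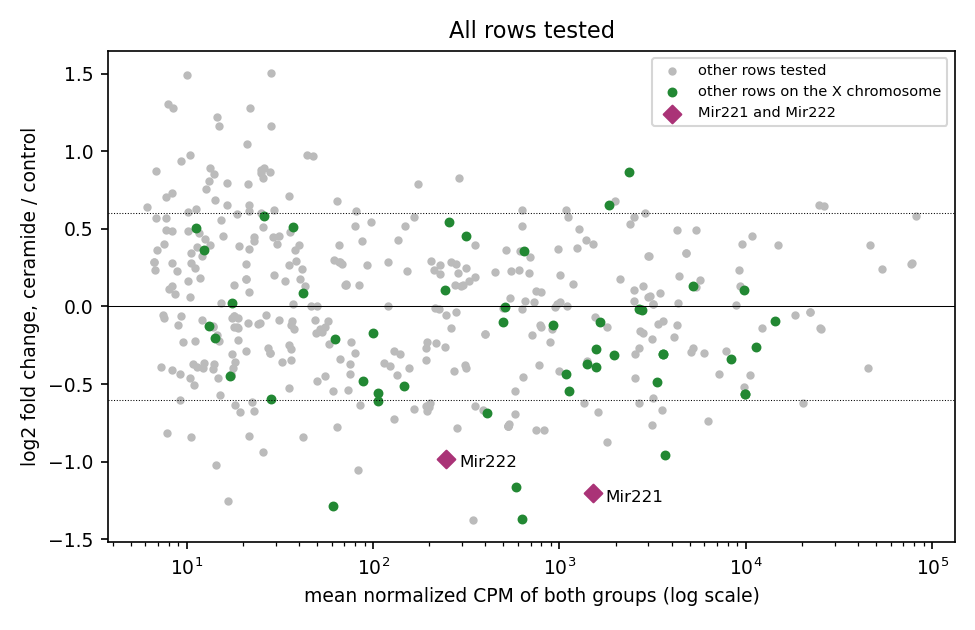
Log2 fold change (ceramide over control) against mean normalized CPM of both groups (log scale) for the 418 rows tested, with the pair as diamonds, other rows on the X chromosome in green and dotted lines at the fold threshold of 0.6. Mir221 (-1.20) and Mir222 (-0.98) lie well below the median of -0.01.

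Scored per base of hairpin, the control level of Mir221 took place 85 from the top of the 418 rows and that of Mir222 place 160. In ceramide exosomes these places were 113 and 189. The places depend on the annotated hairpin length, which differs within the pair while the 3p strands are equally long. Together, the pair took a share of 0.250 ± 0.00569% of the control counts and 0.105 ± 0.0119% of the ceramide counts (SD, n = 3 each). The pair was thus a small part of the miRNA counts in both groups.

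Within a group, Mir222 varied about as much as counting error alone would give. Its coefficient of variation was 4.14% in control and 6.75% in ceramide exosomes, against 4.96% and 6.20% from counting. Mir221, with more counts, varied by 4.44% and 11.9%, against 1.96% and 2.71% from counting. The wider spread of Mir221 in ceramide exosomes came with replicate 1, the lowest of the 3 at 786 CPM (counting interval 725 to 851), whose interval did not reach the other 2 libraries. In Mir222 the same library lay between the others. Leaving out ceramide replicate 1 gave log2 fold changes of -1.13 (standard error 0.08) for Mir221 and -1.01 (standard error 0.10) for Mir222.

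Libraries with the same replicate number deviated together over the table, so the differences were also taken within numbers. The Mir221 level of the ceramide library was lower than that of its control by 63.1%, 55.5% and 51.1% in replicates 1, 2 and 3. For Mir222 these differences were 49.1%, 50.7% and 48.0%. The Mir222 differences lay within 3 percentage points of each other, while those of Mir221 were spread more widely. Counting error of the Mir222 levels averaged 4.96% in control and 6.20% in ceramide libraries. The close agreement of its differences is therefore not read as a steadier change than that of Mir221. The replicate 1 pair, the only one with one lane number though not shown to share a lane, gave log2 differences of -1.44 for Mir221 and -0.97 for Mir222.

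The ratio of the members' counts within a library does not depend on depth or scaling. Mir221 to Mir222 was 6.37, 6.97 and 5.91 in control replicates 1, 2 and 3. In ceramide replicates 1, 2 and 3 the ratio was 4.62, 6.29 and 5.56. The ranges overlapped between the groups, since ceramide replicate 2 lay above control replicate 3. The mean ratio was 6.42 ± 0.529 over the control and 5.49 ± 0.840 over the ceramide libraries (SD, n = 3 each), a difference of -0.22 on the log2 scale between the fitted changes of the members. Per base of hairpin the ratio was 5.34 ± 0.440 and 4.57 ± 0.699 (SD, n = 3 each), although both 3p strands measure 23 bases.

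The ratio was also compared among libraries of one group, which the choice of the pair did not use. The 3 ceramide libraries differed by more than counting error (Fisher's exact test on their counts, two-sided, p = 0.0152, adjusted p = 0.0304 over 2 groups). For the 3 control libraries the same test gave p = 0.0718 (Fisher's exact test, adjusted p = 0.0718). The ratio of ceramide replicate 1 had a counting interval of 3.82 to 5.62 and lay lowest of all. These tests compare libraries, not conditions, and reads copied in amplification would make the p-values too small. Without ceramide replicate 1 the log2 difference between the members was -0.12.

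**Figure D3:**
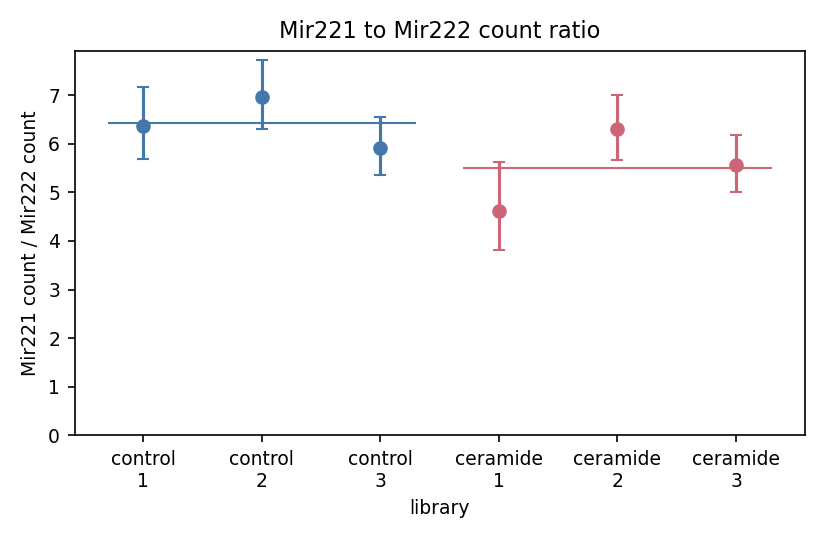
Ratio of the Mir221 count to the Mir222 count in each library (points, with exact 95% counting intervals as bars) and the group means (lines). The ratio lies between 5.91 and 6.97 in control and between 4.62 and 6.29 in ceramide libraries.

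Mir1928, the other hairpin of the RefSeq table with this seed, had 0 counts in every library. With 9591121 counts over all libraries, a count of 0 allows up to 0.313 CPM, taking 3 counts as the limit. Among the hairpins of that table, the counts on those with the seed were thus those of Mir221 and Mir222. The table lists 1005 hairpins, against 1973 rows of the count table, so other rows were not checked for the seed.

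Other pairs of hairpins from one transcript that share a seed were set beside this one, from a list of 17 pairs. In 15 of them both rows were tested and a shared seed was found in the RefSeq table. The members of 14 pairs had log2 fold changes of one sign. The absolute difference within a pair ranged from 0.01 to 0.51, with a median of 0.08, and 13 pairs had a smaller one than the 0.22 of Mir221 and Mir222. Without ceramide replicate 1 the difference of Mir221 and Mir222 was 0.12 in size and 9 of the 15 pairs had a smaller one. With the lane term it was 0.46, and 13 pairs had a smaller one. In the Mir181a-1 and Mir181b-1 pair, from another family with one seed, the log2 fold changes were -0.65 and -0.66, and neither row was called. Mir34b and Mir34c, which are induced by p53, had -0.80 and -0.59, of which only Mir34b was called. Mir132 (-0.01) and Mir212 (-0.37), a pair raised by neuronal activity, differed more than Mir221 and Mir222 did. The widest difference was that of Mir200a and Mir200b, whose 3p strands do not share the seed that their 5p strands have in common. Mir19a and Mir19b-1 were the only other pair with both rows called. The hairpins of 1 pair, Mir29b-2 and Mir29c, share 15 bases or more, and reads could be counted on both. Mir181a, Mir181b, Mir16 and Mir29b each entered with several hairpins, so the 15 pairs are not all separate.

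**Figure D4:**
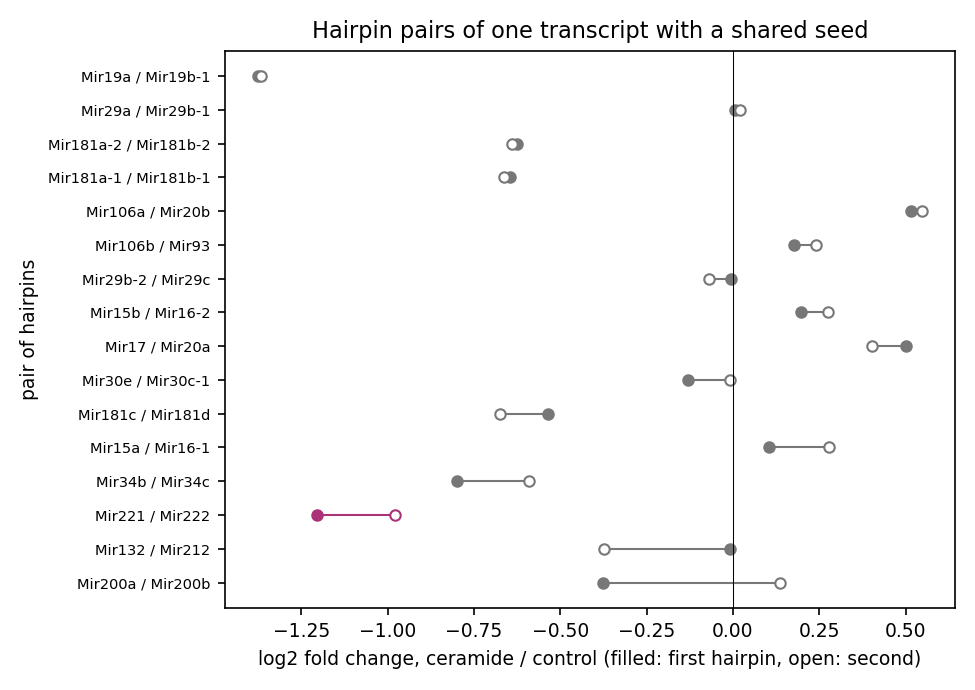
Log2 fold change (ceramide over control) of the first (filled) and second (open) hairpin of each pair of hairpins that come from one transcript and share a seed, ordered by the difference within a pair. The Mir221 and Mir222 pair lies at -1.20 and -0.98, with a difference of 0.22 against a median of 0.08 over the other 15 pairs.

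The rows whose profile over the 6 libraries was most like that of the pair were found by the root-mean-square distance of log2 CPM, each row centred on its own mean. Mir880 was nearest, at a distance of 0.06, followed by Mir361 (0.08), Mir500 (0.10), Gm23873 (0.12) and Mir34b (0.16). Mir221 and Mir222 were 0.19 apart, against a median of 0.40 over all pairs of tested rows, and 11.9% of those pairs were as close or closer. Mir222 took place 5 among the rows nearest to Mir221, and Mir221 place 17 among those nearest to Mir222. With each row centred on its group means, which leaves out the difference between the groups, the distance between the members was 0.15 against a median of 0.25, and 22.0% of pairs of rows were as close or closer. Several rows from other transcripts were thus nearer to each member than its partner was. The small distance within groups does not show that the members rose and fell together. Their deviations from the group means had opposite signs in control replicates 2 and 3 and in ceramide replicates 1 and 2. In ceramide replicate 1 they were -0.21 for Mir221 and 0.03 for Mir222. The signs were alike in control replicate 1 and ceramide replicate 3.

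Of these 5 rows, 3 lie on the X chromosome, none of them near the pair. Mir880, of a testis-expressed rodent cluster, had 852, 813 and 763 CPM in control and 329, 374 and 378 CPM in ceramide libraries. Mir361, which lies within the gene Chm, had 5142, 4746 and 4707 CPM in control and 2417, 2552 and 2564 CPM in ceramide libraries. Mir500, which lies within the gene Clcn5, had 91.8, 86.0 and 82.7 CPM in control and 36.4, 33.3 and 37.5 CPM in ceramide libraries. That these groups do not overlap follows from the choice of rows by their likeness to the pair, and 25.1% of all rows tested lay lower in ceramide without overlap. Gm23873, on chromosome 7, rests on 128 counts in all.

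**Figure D5:**
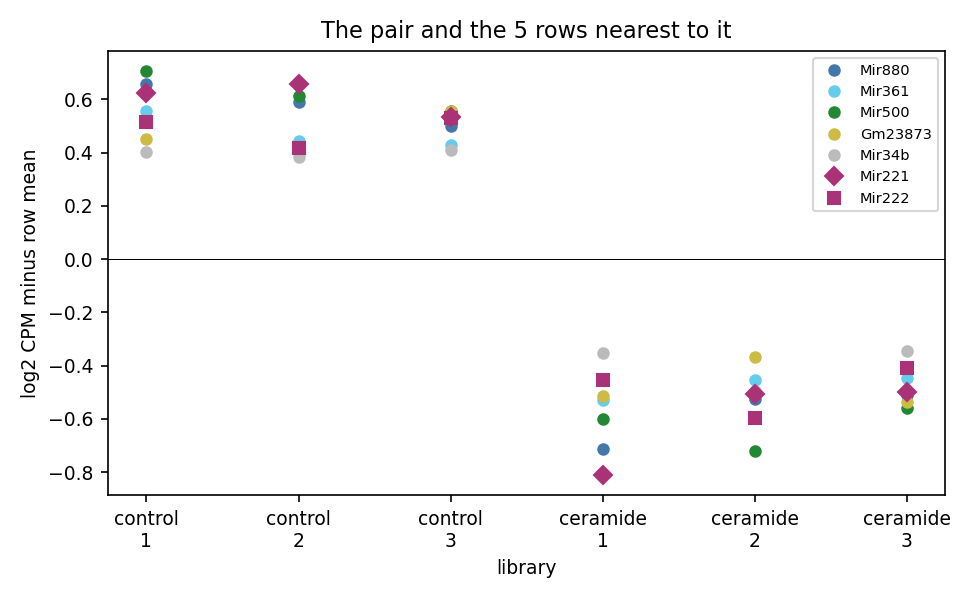
Log2 CPM minus the row mean in each library for Mir221, Mir222 and the 5 rows nearest to the mean of both. In ceramide replicate 1, Mir221 (-0.81) lies below Mir222 (-0.46), with Mir880 (-0.71) closest to Mir221.

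Over the whole X chromosome, 49 other rows were tested. Of these, 6 (12.2%) were called lower in ceramide, against 8.37% of all rows tested, and 1 (2.04%) was called higher, against 3.11%. This split moved with the scaling, to 4 lower and 3 higher with DESeq2's size factors and to 9 lower and 0 higher with library size alone. The median log2 fold change of the X chromosome rows was -0.21, against -0.01 over all rows tested, and 35 of the 49 were negative. Many of the negative rows lie in the cluster of Mir880. Some rows of that cluster repeat each other, since Mir465c-1 and Mir465c-2 held 89909 counts each, and Mir465b-1 and Mir465b-2 33049 each. The rows called lower were Mir361, Mir19b-2, Mir880, Mir92-2, Mir384 and Mir500, and the row called higher was Mirlet7f-2. Of the rows called lower, Mir384 lay nearest to the fold threshold, at -0.61 on the log2 scale. Mir92-2 (-0.69) had the highest adjusted p of them, 0.0380 by the edgeR quasi-likelihood test. Mir19b-2 (-1.37) has the same 3p strand as Mir19b-1 on chromosome 14, and their rows held 5260 and 5268 counts in all, so the counts of Mir19b-2 cannot be told apart from those of Mir19b-1. The rows called were named after their values were seen.

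A list of 11 other miRNAs commonly counted among those that favour proliferation had 10 rows tested. None was called higher and 3 were called lower (30% of the list against 8.37% of all rows), with a median log2 fold change of -0.11. The 3 were Mir25 (-0.62), Mir19a (-1.38) and Mir19b-1 (-1.37), and 5 of the 10 rows were positive. The rows are not all separate, since Mir19a and Mir19b-1 come from one transcript and share a seed. Mir17 and Mir20a lie beside them on chromosome 14, and Mir106b and Mir93 lie beside Mir25 on chromosome 5. Of the most abundant members, Mir93 stood at 0.24 on the log2 scale (standard error 0.07), with an adjusted p of 0.0532 by edgeR's quasi-likelihood test. Mir21a stood at -0.40 (standard error 0.09), with an adjusted p of 0.0324 by the same edgeR test, and did not reach the fold threshold. The list did not move one way.

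A list of miRNAs commonly counted as restraining proliferation (let-7, miR-34, miR-15, miR-16, miR-195 and miR-26 rows) had 20 rows tested. Of these, 4 were called higher (20%, against 3.11% of all rows) and 1 lower (5%, against 8.37%), with a median log2 fold change of 0.36. The row called lower was Mir34b and those called higher were let-7 rows, Mirlet7c-1, Mirlet7c-2, Mirlet7a-1 and Mirlet7f-2. Mirlet7c-1 and Mirlet7c-2, both rows of let-7c, held 244887 and 258198 counts with log2 fold changes of 0.65 each, so they do not stand for separate miRNAs. The most abundant row, Mirlet7b, stood at 0.59 on that scale (standard error 0.07), just short of the fold threshold. Mir16-1 and Mir16-2, which share a mature strand, had 0.28 each. The Mir26a-1 and Mir26a-2 rows likewise held nearly the same counts, 46271 and 46267. The number called in this list varied with the scaling and was 0 higher and 2 lower when only library size was used. The share over all rows also depends on the fit. With the replicate block, 38 of the 418 rows tested were called higher, against 13 without it. The list stayed at 4 higher and 1 lower. Part of both lists was already known to differ in these libraries, so they give no independent support to a direction.

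Markers of other cells were summed as a check on the cargo. The 6 blood and endothelial rows found, led by Mir126a, an endothelial miRNA, summed to between 1308 and 1389 CPM in control and between 1259 and 1406 CPM in ceramide libraries. None of the 6 was called, and none was at 0 in all libraries. The 6 muscle rows, led by Mir143 of smooth muscle, summed to between 8668 and 10287 CPM in control and between 7119 and 8763 CPM in ceramide libraries, and none was called. The 16 neuronal rows found summed to between 21666 and 22868 CPM in control and between 20180 and 25099 CPM in ceramide libraries, mostly from Mir218-2, Mir218-1, Mir138-2 and Mir138-1. Of the 16, 3 were called lower, Mir138-1 (-0.76), Mir128-2 (-0.78) and Mir153 (-0.84), named here after their values were seen, which is 18.8% of the list against 8.37% of all rows. None was called higher, 5 of the 16 had a positive log2 fold change, and the median was -0.16. The rows do not all stand for separate miRNAs. Mir124a-1, Mir124a-2 and Mir124a-3 held 160, 159 and 159 counts, and Mir9-2 and Mir9-3 held 680 and 683. The positive rows were Mir218-2 (0.46), the most abundant of the list, Mir137 (0.24), Mir9-2 and Mir9-3 (0.14 each) and Mir219a-2 (0.61). Mir124a-1 and Mir9-2, also named after their values were seen, were rare in both groups, unlike the Mir218 and Mir138 rows of the same list. Mir124a-1, of a miRNA of mature neurons, rested on 160 counts in all. It averaged 20.0 ± 0.967 CPM in control and 14.7 ± 0.320 CPM in ceramide libraries (SD, n = 3 each), and Mir9-2 67.3 ± 5.21 CPM and 74.3 ± 5.75 CPM. Whether any of these sources, or serum in the medium, had a part in the counts of the pair was not tested. In exosomes, fewer vesicles that carry a miRNA and fewer copies per vesicle cannot be told apart.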

How the data were processed

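Small RNA of exosomes was sequenced with the QIAseq miRNA kit in 6 libraries. The authors removed adapters with Cutadapt 1.15, keeping reads of at least 15 bases, aligned them to GRCm38 with STAR 2.5.3a, and deposited raw counts per GENCODE miRNA gene, 1973 rows in all. The use of strand, of molecular identifiers and of reads with several places is not given in the sources used here. GENCODE M21 named 1894 rows.

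Rows were tested with edgeR 4.0.16 (R 4.3.3), by its quasi-likelihood test on the deposited counts, with TMM scaling, filterByExpr (418 rows) and condition as the only term. Calls needed a Benjamini-Hochberg adjusted p no higher than 0.05 and a log2 fold change of 0.6 or more in size. Profiles used log2 CPM with a prior count of 2. Standard errors come from the F statistic. Alternatives were other scalings, no filter, DESeq2 1.42.0, a replicate block, a lane term and leaving out each library. The procedure was tested on simulated counts. Libraries with the same replicate number correlated in their deviations from the group means over the rows tested (replicate 1 r = 0.59, replicate 2 r = 0.43, replicate 3 r = 0.75). The numbers were therefore taken as pairing the libraries, but all calls come from the fit without the block, which was run as an alternative.

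By rule, named rows are the members, seed sharers, rows within 1 Mb, the 5 nearest profiles, the 3 most abundant rows of each list and pairs that share a seed. Called rows of the lists and some other neuronal rows were named in addition, after their values were seen. The members and lists were chosen with earlier results of these data known.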

Additional observations from a re-analysis of the deposited data

How the results depend on the processing

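Mir221 and Mir222 were lower in ceramide under each of the 13 alternatives. Mir222 ranged from -1.06 with library size alone to -0.90 with DESeq2's size factors in edgeR, and Mir221 from -1.44 with the sequencing lane as a term to -1.13. The libraries numbered lane 1 share a sample number, which points to separate runs and not to a shared lane. With the lane term the effect rests on these libraries, so it is no comparison within a lane. Then the log2 difference between the members was -0.46 in place of -0.22, and 29 rows were called (8 higher, 21 lower), Mir221 among them and Mir222 not, whose log2 fold change stayed at -0.97 while its standard error rose from 0.10 to 0.17. In the other 12 alternatives both members stayed among the called rows. Nothing is read from this, since the pair was selected on this contrast and the alternatives use the same libraries. The replicate block gave 87 called rows (38 higher, 49 lower) against 48, log2 fold changes of -1.21 for Mir221 and -0.98 for Mir222, and 9 called rows on the X chromosome against 7. With each library left out in turn, 28 to 55 rows were called, the fewest without control replicate 1, and Mir221 lay between -1.26 and -1.13, Mir222 between -1.02 and -0.93, their log2 difference between -0.33 and -0.12 and the mean count ratio between 5.75 and 6.22. Among the growth-restraining miRNAs 5 were called, against 8 with upper-quartile scaling, 8 when edgeR took the DESeq2 size factors, 2 with library size alone and 8 with the lane term, and 1 to 7 with a library left out, the fewest without ceramide replicate 1. Scaling by library size alone gave 4 rows higher and 42 lower over the table, and DESeq2's size factors 21 higher and 26 lower. The cause of these differences was not tested. The number of other pairs with a smaller difference than Mir221 and Mir222, 13 of 15, was 9 to 13 with a library left out, in fits chosen after seeing the data. Mir222 rests on 131 counts in ceramide replicate 1.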
